A study of Mus musculus with 8 samples.

Results

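The astrocyte marker genes were 9 genes of astrocyte identity, transport and reactivity: Gfap, Vim, Aqp4, Slc1a2, Slc1a3, Gja1, Gjb6, Aldh1l1 and S100b. They were chosen by name, as every noncontrol probe of the array design that carried one of these gene names, a rule that uses no measured value, although the genes themselves were picked with earlier results of these data known. The rule gave 14 probes on 23 spots, out of 34797 gene names, 55681 probes and 59305 noncontrol spots in all. All 9 genes and all 14 probes passed the filters on signal quality.

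Gene expression in the olfactory bulb, the first relay of smell in the brain, was measured with 8 one-color arrays, 2 arrays for each of 4 pools of RNA. All mice were C57BL/6J males aged 56 days. In C-C, mice were reared in a standard cage and breathed clean air in a control chamber. In C-DE, mice reared in a standard cage inhaled diesel exhaust at 90 µg/m3 for 8 hours per day over 28 days, ending 1 day before the bulbs were taken. EE-C and EE-DE were the matching clean air and diesel exhaust groups reared with environmental enrichment, a larger cage with a running wheel, a small house, blocks and tubing that the dams entered before birth and the offspring kept during exposure. According to the methods, the C-C and C-DE pools held 7 mice each, the EE-C pool 8 and the EE-DE pool 9. Each group was therefore 1 pool, the 2 arrays of a pool show technical spread only, and no test between groups could be made.

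Astrocytes are the glial cells that take up transmitter glutamate, buffer potassium and water, couple to each other through gap junctions and wrap blood vessels with their end-feet. In the olfactory bulb they surround the glomeruli, where axons from the nose meet the bulb's own neurons. After injury or inflammation astrocytes can become reactive, and raised Gfap and Vim are the usual sign of that state. Several of these markers are not exclusive to astrocytes: S100b and Vim are also made by olfactory ensheathing cells and other cells, and Gfap is made by the adult stem cells that supply the bulb with new neurons.

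Levels are given as log2 signal, the log2 of the scanner's background-subtracted signal minus the 75th percentile of that array, so 0 is the brightness that 75% of spots did not exceed. A change is 1 pool mean minus another on that scale, and its range is taken over the 4 ways of pairing 1 array of each pool. Of the 5 comparisons, the standard-cage comparison set C-DE over C-C and the enriched comparison set EE-DE over EE-C, so both pairs differ in exposure. The clean air comparison set EE-C over C-C and the exposed comparison set EE-DE over C-DE, so both pairs differ in housing. The joint comparison set EE-DE over C-C. The standard-cage, clean air and joint comparisons share the C-C arrays, and others share a pool as well. A change of at least 1.5-fold, or 0.585 on the log2 scale, was counted as a call. The 75th percentiles of the 8 arrays lay between 644 and 716 intensity units, and the marker spots read from 189 to 30354 units with no saturated spot. The first EE-DE array had 56.7% of its spots well above background, against 68.0% to 70.6% on the other 7. Standard-cage pools lay in one column of the slide and enriched pools in the other, so rearing and slide column cannot be told apart.

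The probes are 60 bases long, and several genes had more than 1, so their positions matter for reading the values. Positions are from the array files, on mouse build mm9. Gfap, the intermediate filament protein that defines the cell type, had 3 probes on the minus strand: Gfap a at chr11:102751813-102751872 and Gfap b at chr11:102752726-102752785, both assigned to transcript variant 1, and Gfap c at chr11:102748864-102748923, assigned to variant 2. Slc1a2, which encodes the glutamate transporter GLT-1, had 3 probes on the plus strand: Slc1a2 a at chr2:102622252-102622311 and Slc1a2 b at chr2:102626380-102626439, both of variant 1, and Slc1a2 c at chr2:102617752-102617811, of variant 3. Aqp4 had 2 probes, Aqp4 a and Aqp4 b, and every other gene had 1. The Gja1 probe, at chr10:56109814-56109873 on the plus strand, was printed on 10 spots. The first 30 bases of the Gfap, Slc1a2 and Gja1 probes are shown because the results below compare probes of one gene or spots of one probe. The capitals in Gfap a mark a run of 12 bases, from base 13, that occurs again in the same probe from base 49.
Gfap a: ggttatattaacAGAGCTAGCCTAtgctaa
Gfap b: caaaaggctcacaatacaagttgtcccaat
Gfap c: tttgaggaactgaaacgtgttgtgttcaag
Slc1a2 a: gtagaatgtttcagagtttcatgggtgccc
Slc1a2 b: aacccagtttccagcattcagacatcagta
Slc1a2 c: aagcaactctaatcagtgtgtctatgccgc
Gja1: ctacacattaactcagaacttgtattctga
Brightness can differ between probes with their sequence, so levels were compared across arrays within a probe.

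Astrocyte marker expression was nearly flat across the 4 groups. In the standard-cage comparison, 0 of 14 marker probes changed by 1.5-fold, where 0.576% of the 21709 measured probes did. The counts were also 0 of 14 in the enriched comparison (0.944% of all probes), in the clean air comparison (0.825%), in the exposed comparison (0.636%) and in the joint comparison (0.815%). At these background rates a list of 14 probes would hold few calls or none, so the counts alone do not set the markers apart from other genes. The sizes were small as well: the change farthest from 0 over the 70 combinations of probe and comparison was -0.18, a difference of 1.14-fold, and of the 280 single pairings of arrays 0 passed 1.5-fold, with the widest at 1.26-fold. The plot of changes with their pairing ranges shows all of them inside the lines of 1.5-fold.

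**Figure D1:**
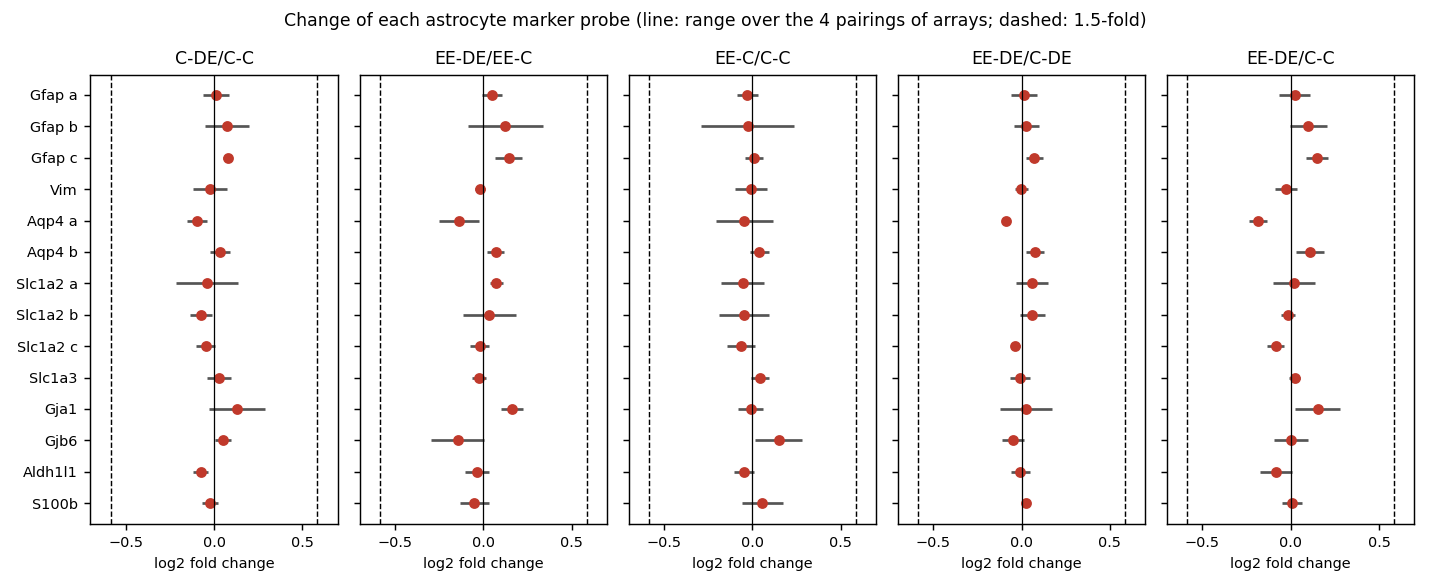
Log2 fold change of each of the 14 astrocyte marker probes (points) in the 5 comparisons, with the range over the 4 pairings of arrays (lines) and the 1.5-fold limits (dashed). Every line ends within the dashed limits, and the point farthest from 0 is Aqp4 a at -0.18 in the joint comparison.

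The median change of the 14 probes was -0.01 in the standard-cage comparison, 0.01 in the enriched comparison, -0.02 in the clean air comparison, 0.02 in the exposed comparison and 0.01 in the joint comparison, while the medians over all probes lay between -0.01 and 0.01. Regardless of sign, the median size of the change with diesel exhaust was 0.050 in the standard cage (all probes, 0.059) and 0.061 under enrichment (all probes, 0.060). The gap between the highest and lowest pool mean of a marker probe had a median of 0.084 and ran from 0.026 for Vim to 0.18 for Aqp4 a. Over all probes the median gap was 0.13, and 30.7% of them had a gap at least as wide as that of Aqp4 a. Duplicate arrays of a pool differed by a median of 0.065 for the markers and 0.085 for all probes, so most marker differences between pools were of the size of the difference between 2 arrays of the same RNA. In whole bulbs, fewer astrocytes and less RNA per astrocyte cannot be told apart.

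**Figure D2:**
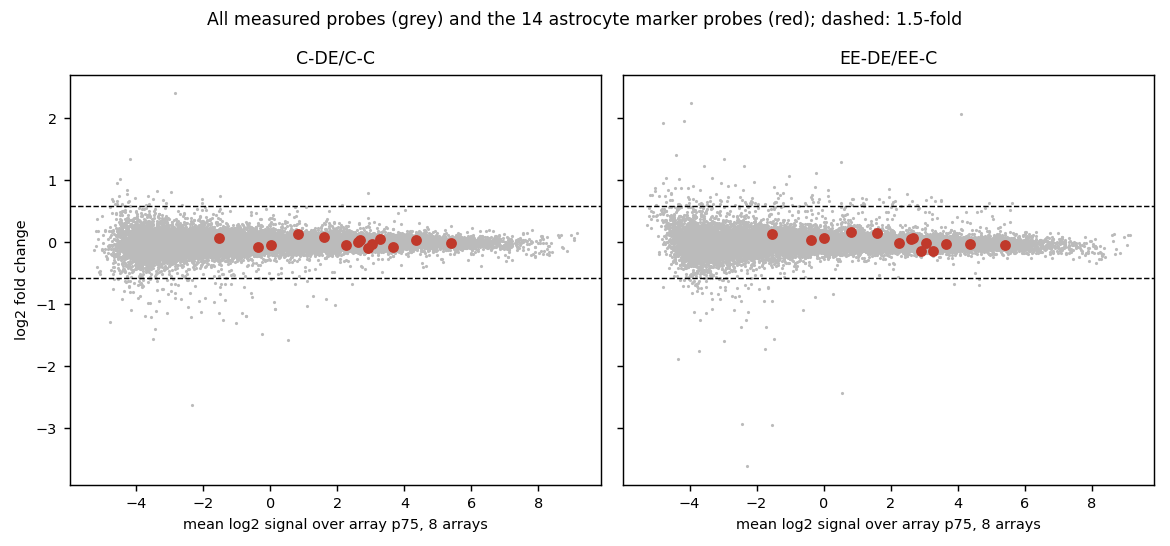
Log2 fold change with diesel exhaust against the mean log2 signal over the 8 arrays, for the standard cage (left) and enrichment (right), with all 21709 measured probes in grey, the 14 astrocyte marker probes in red and 1.5-fold dashed. The red points lie close to 0, between -0.10 and 0.13 on the left and between -0.15 and 0.16 on the right.

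Whether the 2 arrays of one pool lay wholly above or below the 2 arrays of the other was counted as a second, weaker criterion. In the standard-cage comparison the arrays did not overlap for 5 of 14 marker probes, against 40.9% of all probes. In the enriched comparison this held for 5 of 14 (34.2% of all probes). With housing as the contrast it held for 1 of 14 in the clean air comparison (37.7%) and 5 of 14 in the exposed comparison (42.2%). The share was 5 of 14 in the joint comparison too (47.1%). These counts are 35.7% and, in the clean air comparison, 7.14% of the marker probes. The 35.7% lies near the 34.2% of all probes in the enriched comparison. In the other comparisons the marker share was below that of all probes.

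**Figure D3:**
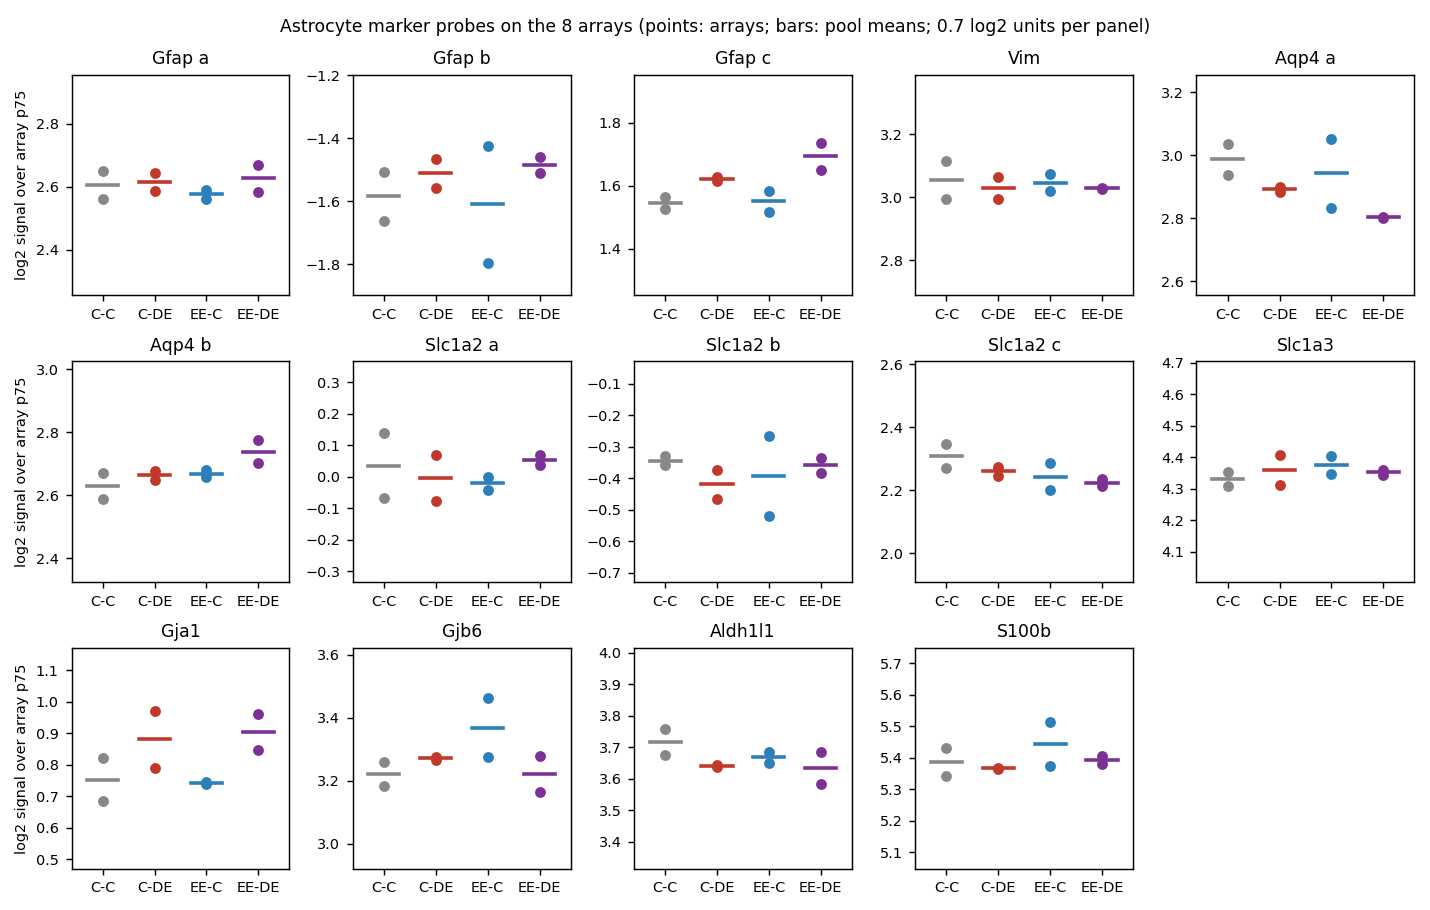
Log2 signal of the 14 astrocyte marker probes on each array (points) and the mean of each pool (bars), in panels that all span 0.7 log2 units. Gfap c is higher in both exposed pools, the 2 Aqp4 probes slope in opposite ways (with normexp not in the 2 exposure comparisons), and the pools of Gfap a, Gfap b, Vim and Slc1a3 overlap in all 5 comparisons. Each of the other 7 panels holds 1 or 2 comparisons without overlap.

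The intermediate filaments come first, since their rise is the classical sign of reactive astrocytes. Gfap c read 1.53 and 1.56 (C-C), 1.63 and 1.62 (C-DE), 1.59 and 1.52 (EE-C), and 1.74 and 1.65 (EE-DE). All 4 arrays of exposed mice were above all 4 arrays of clean air mice, a pattern that 1.76% of all probes showed in this direction, and Gfap c was the only marker probe with it in either direction. The change was 0.08 (0.05 to 0.10) in the standard-cage comparison, or 1.06-fold, and 0.14 (0.07 to 0.22) in the enriched comparison, or 1.10-fold, with the highest pool mean in EE-DE. These changes were larger in size than those of 61.2% and 82.4% of all probes. With the median of the surrounding spots subtracted on each array, a step described below for Gjb6, the lowest exposed array (1.59) fell below the highest clean air array (1.60). With the normexp background correction in place of the scanner's own, all 4 exposed arrays of Gfap c still lay above the clean air arrays, and Slc1a2 c then showed the pattern downward.

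The other Gfap probes did not repeat that pattern. Gfap a read 2.65 and 2.56 (C-C), 2.64 and 2.59 (C-DE), 2.59 and 2.56 (EE-C), and 2.67 and 2.58 (EE-DE), so that the pools overlapped throughout. Its change was 0.0089 (-0.06 to 0.08) with diesel exhaust in the standard cage and 0.05 (-0.0066 to 0.11) under enrichment. Gfap b, whose readings of 189 to 259 intensity units were dim, stood at -1.66 and -1.51 (C-C), -1.46 and -1.56 (C-DE), -1.80 and -1.42 (EE-C), and -1.51 and -1.46 (EE-DE). The 2 EE-C arrays of Gfap b thus lay on either side of every other array, and its changes of 0.07 (-0.05 to 0.20) and 0.13 (-0.09 to 0.34) were smaller than that gap of 0.37. Within an array, the difference Gfap a minus Gfap c moved by -0.07 (-0.15 to 0.02) in the standard-cage comparison and by -0.09 (-0.11 to -0.07) in the enriched comparison, which is a shift between 2 probes of a gene and not an amount of either transcript.

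Vim encodes vimentin, the filament protein of immature and reactive astrocytes, which endothelial and ensheathing cells also make. Its probe (chr2:13504232-13504291, plus strand) read 3.12 and 2.99 (C-C), 2.99 and 3.06 (C-DE), 3.07 and 3.02 (EE-C), and 3.03 and 3.03 (EE-DE). The pools overlapped in all comparisons, and the change with diesel exhaust was -0.03 (-0.12 to 0.07) in the standard cage and -0.02 (-0.05 to 0.01) under enrichment. Of the 14 marker probes, Vim had the narrowest range of pool means. With normexp its changes were farther from 0, at -0.08 in the standard-cage comparison, -0.06 in the enriched comparison and -0.11 in the joint comparison.

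Aqp4, the water channel of the end-feet, gave changes of opposite sign at its 2 probes, but in the 2 exposure comparisons not under another background correction. The files assign both probes to a single transcript on the minus strand of chromosome 18, with 3353 bases of genome between them. Aqp4 a read 3.04 and 2.94 (C-C), 2.88 and 2.90 (C-DE), 3.05 and 2.83 (EE-C), and 2.81 and 2.80 (EE-DE). It was lower by 0.10 in the standard-cage comparison (-0.15 to -0.04), by 0.14 in the enriched comparison (-0.25 to -0.03) and by 0.18 in the joint comparison (-0.23 to -0.13), and the arrays did not overlap in any of these 3 comparisons. The second EE-C array nevertheless lay below both C-DE arrays. Aqp4 b read 2.67 and 2.59 (C-C), 2.65 and 2.68 (C-DE), 2.68 and 2.66 (EE-C), and 2.78 and 2.70 (EE-DE). Its change was 0.03 (-0.02 to 0.09) in the standard-cage comparison, 0.07 (0.02 to 0.12) in the enriched comparison and 0.11 (0.03 to 0.19) in the joint comparison, upward where Aqp4 a went down. With normexp, Aqp4 b came to -0.05 in the standard-cage comparison, -0.0074 in the enriched comparison and 0.0006 in the joint comparison, while Aqp4 a stayed lower at -0.07, -0.13 and -0.13. In the standard-cage comparison Aqp4 b also turned to -0.0090 without the second C-C array and to -0.0062 with the median of the surrounding spots subtracted, the step named for Gfap c.

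The difference between the 2 Aqp4 probes on the same array removes the scaling of that array. Aqp4 a minus Aqp4 b moved by -0.13 (-0.14 to -0.12) in the standard-cage comparison, by -0.21 (-0.34 to -0.08) in the enriched comparison and by -0.29 (-0.33 to -0.25) in the joint comparison. The shift in the clean air comparison was -0.08 with a range that crossed 0 (-0.19 to 0.02), and that in the exposed comparison was -0.16 (-0.20 to -0.12), with 0.23 between the probes in C-DE and 0.06 in EE-DE. With normexp the shift was smaller, at -0.02 in the standard-cage comparison, -0.12 in the enriched comparison, -0.01 in the clean air comparison, -0.11 in the exposed comparison and -0.13 in the joint comparison. With the surrounding spots' median subtracted it was -0.06 in the standard-cage comparison, and leaving out 1 EE-C array gave -0.11 or -0.31 in the enriched comparison. On the minus strand the lower coordinates of Aqp4 a place it nearer the end of the gene than Aqp4 b. The mean of both probes hides these shifts, and a value for Aqp4 as a whole therefore depends on the probe taken.

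The glutamate transporters clear glutamate from synapses, Slc1a3 (GLAST) early in development and in radial glia, Slc1a2 (GLT-1) mostly in mature astrocytes. Slc1a3 (chr15:8584236-8584295, minus strand) read 4.31 and 4.35 (C-C), 4.41 and 4.31 (C-DE), 4.40 and 4.35 (EE-C), and 4.34 and 4.36 (EE-DE). Its pools overlapped in all 5 comparisons, with changes of 0.03 (-0.04 to 0.10) and -0.02 (-0.06 to 0.01) under diesel exhaust. With normexp the first of these was 0.08.

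Slc1a2 c read 2.35 and 2.27 (C-C), 2.25 and 2.27 (C-DE), 2.20 and 2.29 (EE-C), and 2.21 and 2.24 (EE-DE). The highest pool was C-C and the lowest EE-DE, which differed by -0.08 (-0.13 to -0.04) without overlap. Slc1a2 a read -0.07 and 0.14 (C-C), 0.07 and -0.08 (C-DE), 0.00 and -0.04 (EE-C), and 0.04 and 0.07 (EE-DE). Its duplicate arrays in C-C were 0.20 apart, more than any 2 of its pool means, and its arrays stood apart only in the enriched comparison, at 0.07 (0.04 to 0.11). Slc1a2 b read -0.36 and -0.33 (C-C), -0.37 and -0.47 (C-DE), -0.52 and -0.27 (EE-C), and -0.38 and -0.33 (EE-DE), and was lower without overlap in the standard-cage comparison, by 0.07 (-0.14 to -0.01). With normexp that change was -0.01. In the standard-cage comparison all 3 probes were lower, at -0.04 (a), -0.07 (b) and -0.05 (c), also with normexp, though the arrays of a and c overlapped. The 3 probes did not share a direction under enrichment, where a and b were up by 0.07 and 0.03 and c was down by 0.02. With normexp, c was at -0.09 in both exposure comparisons.

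Gja1 and Gjb6 encode connexin 43 and connexin 30, the subunits of the gap junctions that join astrocytes. Gja1 was the marker with the firmest measurement within an array, because its probe was printed on 10 spots, of which 9 were free of an outlier flag on every array. The mean of those 9 read 0.68 and 0.82 (C-C), 0.97 and 0.79 (C-DE), 0.74 and 0.74 (EE-C), and 0.96 and 0.85 (EE-DE). Its change was 0.13 in the standard-cage comparison (-0.03 to 0.29), where the second C-DE array lay below the second C-C array. Leaving out 1 array moved that value between 0.04, without the first C-DE array, and 0.22, without the second. In the enriched comparison the change was 0.16 (0.10 to 0.22), or 1.12-fold, without overlap, and in the joint comparison it was 0.15 (0.03 to 0.28), again without overlap. The 2 clean air pools differed by -0.0096 (-0.08 to 0.06).

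Spot by spot, all 10 Gja1 spots were higher in C-DE than in C-C, by 0.13 ± 0.10 (SD, n = 10 spots), and all 10 were higher in EE-DE than in EE-C, by 0.16 ± 0.07. In the clean air comparison, 4 spots were higher and 6 lower, at -0.0040 ± 0.09. The spots of one array had an SD of 0.06 to 0.15 and share one hybridization, so they measure the error within an array and are not replicates of the mice. The first arrays of C-DE and EE-DE held 0.98 and 0.96 as means over all 10 spots, and the second held 0.77 and 0.85, against 0.68 to 0.81 on the 4 clean air arrays.

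**Figure D4:**
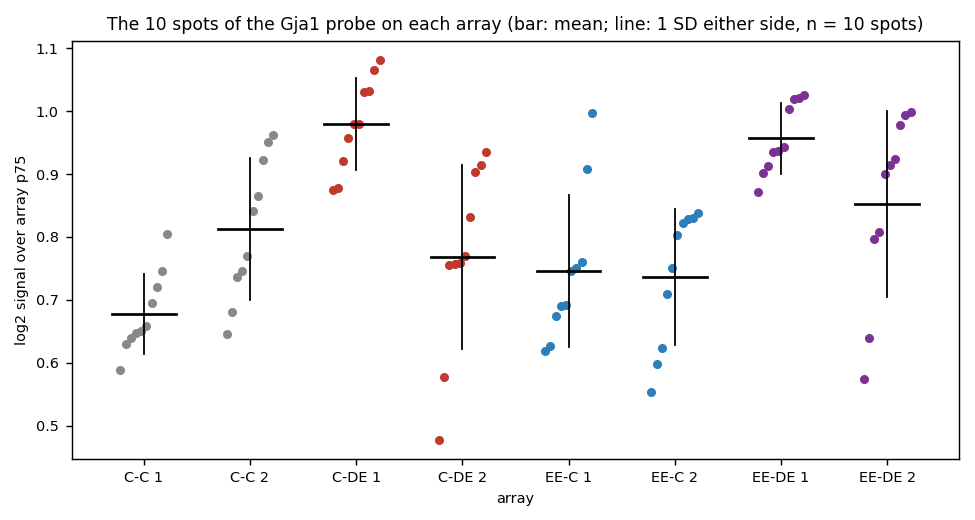
Log2 signal of the 10 spots of the Gja1 probe on each array, with their mean (bar) and 1 SD either side (line). The first C-DE and first EE-DE arrays have the highest means, 0.98 and 0.96, and the second C-DE array, at 0.77, lies among the clean air arrays.

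Gjb6 (chr14:57742226-57742285, minus strand) had changes with diesel exhaust of opposite sign in the 2 housings. It read 3.26 and 3.18 (C-C), 3.27 and 3.28 (C-DE), 3.46 and 3.27 (EE-C), and 3.28 and 3.16 (EE-DE). One array, the first of EE-C, stood above the other 7. The change with diesel exhaust was 0.05 (0.0072 to 0.09) in the standard cage and -0.15 (-0.30 to 0.0045) under enrichment, and that with enrichment under clean air was 0.15 (0.02 to 0.28). The difference between the housings in the change with diesel exhaust was -0.20, with a range of -0.39 to -0.0027 over the 16 choices of 1 array per pool. Gjb6 was the only one of the 14 probes for which that range lay on one side of 0, and with single pools the difference was not tested.

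The spots around Gjb6 differed between the EE-C arrays in the same direction. Around it, within 12 rows and columns, the 228 neighbouring spots were higher on the first EE-C array than on the second by a median of 0.16, close to the 0.19 by which Gjb6 itself differed. Across the 23 marker spots, the neighbours' gap in EE-C ran from -0.14 to 0.17 and passed 0.1 in size at 7 spots. In C-C, C-DE and EE-DE it stayed between -0.06 and 0.05. With the neighbours' median subtracted on each array, an alternative chosen after seeing the data, the change of Gjb6 was 0.01 in the standard-cage comparison, -0.06 in the enriched comparison and 0.08 in the clean air comparison. With normexp those 3 changes were 0.11, -0.12 and 0.16. Subtraction of the neighbours' median left Gfap c at 0.08 and 0.11, Gja1 at 0.14 and 0.18 and Aqp4 a at -0.06 and -0.12 in the 2 exposure comparisons.

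**Figure D5:**
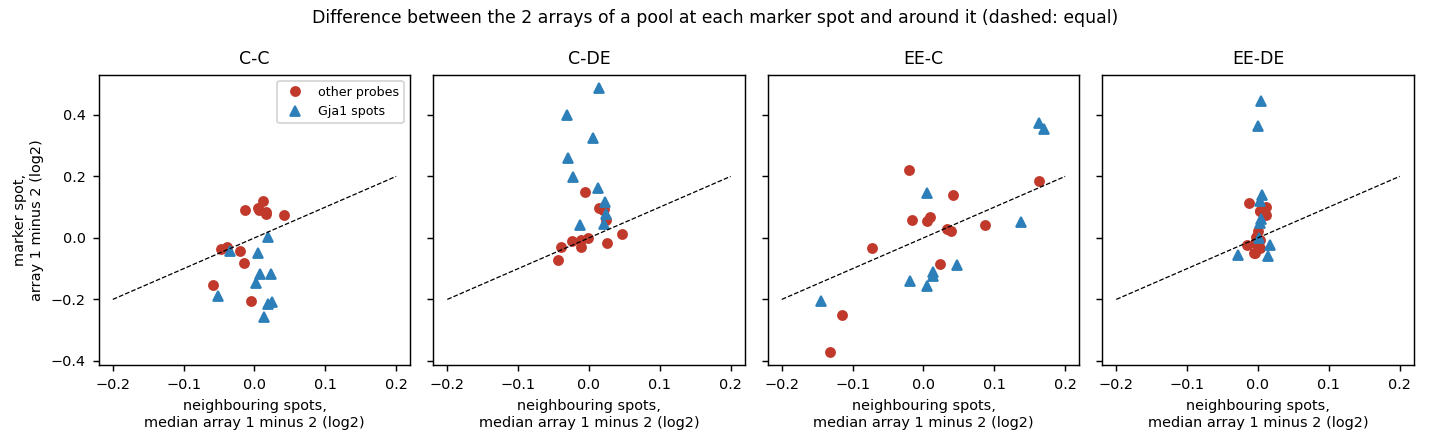
Difference between the 2 arrays of each pool at the 23 astrocyte marker spots (vertical axis, log2) against the median difference of the spots around each (horizontal axis, log2), with Gja1 spots as triangles, the other probes as circles and equality dashed. The horizontal spread is wide in EE-C, -0.14 to 0.17, and narrow in the other 3 pools.

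Aldh1l1 and S100b are general astrocyte markers. Aldh1l1 encodes a folate enzyme and labels nearly all astrocytes. Its probe (chr6:90549091-90549150, plus strand) read 3.67 and 3.76 (C-C), 3.64 and 3.64 (C-DE), 3.65 and 3.68 (EE-C), and 3.68 and 3.58 (EE-DE). It was lower in C-DE than in C-C by 0.08 (-0.12 to -0.03) without overlap, and by 0.03 (-0.10 to 0.03) in the enriched comparison with overlap. With normexp the 2 changes were -0.12 and -0.11.

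S100b encodes a calcium-binding protein that astrocytes also release. The probe (chr10:75723783-75723842, plus strand) read 5.43 and 5.34 (C-C), 5.37 and 5.37 (C-DE), 5.51 and 5.37 (EE-C), and 5.41 and 5.38 (EE-DE). Its changes with diesel exhaust were -0.02 (-0.07 to 0.02) and -0.05 (-0.13 to 0.03), both with overlap. The EE-C arrays again lay farthest apart, by 0.14. In the exposed comparison S100b was 0.03 higher without overlap, and 0.08 higher with normexp.

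Levels in the 4 pools followed no common order. EE-DE was the highest pool for 6 of the 14 probes and the lowest for 4, C-C was the highest for 5 and the lowest for 4, EE-C was the highest for 3 and the lowest for 4, and C-DE was the highest for none and the lowest for 2. Of the 42 steps between neighbouring pools in these orders, 5 separated the arrays of the 2 pools: EE-DE over C-DE and C-DE over EE-C for Gfap c, C-DE over EE-DE for Aqp4 a, EE-DE over EE-C for Aqp4 b, and EE-C over C-DE for Aldh1l1. The difference between the housings in the change with diesel exhaust had a median of 0.03 over the 14 probes, with a median size of 0.043, against 0.075 over all probes.

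Other genes of astrocytes were examined in 4 lists covering transport and metabolism, membrane and adhesion, secreted proteins, and regulators. Their 69 genes were all measured, on 95 probes, and 0 of 95 passed 1.5-fold in any of the 5 comparisons, where 0.576% to 0.944% of all probes did in each, so few calls or none would be held by a list of this size. The median change was -0.03 in the standard-cage comparison and -0.01 in the enriched comparison. In the standard-cage comparison 30 of 95 probes were higher (47% of all probes) and in the enriched comparison 39 of 95 (46.5%).

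A few of these genes were lower on all 4 exposed arrays than on all 4 clean air arrays: 5 of 95 probes, against 3.08% of all probes, while 0 of 95 were higher (1.76%). Other cell types held such probes too: 2 of 18 for microglia (P2ry12 and Itgam), 1 of 20 for oligodendrocytes (Mag) and 1 of 15 for vessels and meninges (Pdgfrb), where 1 more, Pecam1, was higher. All of these are named after their values were seen. Aldoc, the brain aldolase of glycolysis, read 8.04 and 7.91 (C-C), 7.81 and 7.81 (C-DE), 8.01 and 7.90 (EE-C), and 7.81 and 7.82 (EE-DE), a change of -0.16 and -0.14 with diesel exhaust in the standard cage and under enrichment. Sparcl1, or hevin, a secreted protein that promotes synapses, read 8.18 and 8.14 (C-C), 8.00 and 8.03 (C-DE), 8.14 and 8.15 (EE-C), and 7.94 and 8.01 (EE-DE), a change of -0.15 and -0.17. The other astrocyte genes were Slc6a9, the glycine transporter GlyT1 (-0.07 and -0.24), Pla2g7, which breaks down platelet-activating factor (-0.11 and -0.17), and 1 probe of the transcription factor Nfib (-0.13 and -0.15).

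The farthest single changes in these lists were small too. Among transport and metabolism genes, Slco1c1, a thyroid hormone carrier, was the highest at 0.12 in the standard-cage comparison and, on another probe, at 0.08 in the enriched comparison, and the lowest were Slc4a4, a bicarbonate cotransporter, at -0.19 and Slc6a9 at -0.24. Among membrane genes, Bmpr1b was at 0.18 in the standard-cage comparison and the dim probe of Gabrg1 ran from -0.15 in the standard-cage comparison to 0.31 in the enriched comparison, where the lowest was Ednrb, the endothelin B receptor, at -0.16. Among secreted proteins the highest were Mt3, a brain metallothionein, at 0.13 and Thbs4 at 0.13 in the same 2 comparisons, and Sparcl1 was the lowest in both. Among regulators, 1 of the 2 probes of Fam107a, a glucocorticoid-responsive gene, was at 0.26 (0.20 to 0.31) in the standard-cage comparison, while the other was at -0.07. That list's highest in the enriched comparison was Rorb at 0.18, and its lowest was Nfib in both, at -0.15 and -0.15 on different probes.

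Reactive astrocyte genes were taken as a list of 32, of which 26 were measured on 31 probes. The median change was 0.01 in the standard-cage comparison, with 18 of 31 probes higher, and -0.02 in the enriched comparison, with 14 of 31 higher. Of the list, 1 of 31 in the standard-cage comparison was at least 1.5-fold higher (0.143% of all probes), and in the joint comparison 1 of 31 (0.474%). Both calls were Cxcl10, an interferon-induced chemokine that microglia and endothelial cells also make. It read -1.85 and -2.01 (C-C), -1.53 and -0.84 (C-DE), -1.55 and -1.49 (EE-C), and -1.08 and -1.59 (EE-DE). Its change was 0.74 (0.31 to 1.17) in the standard-cage comparison, 0.59 (0.25 to 0.93) in the joint comparison and 0.19 (-0.10 to 0.47) in the enriched comparison, and neither call held in all 4 pairings. With the normexp background correction both calls were lost, at 0.54 in the standard-cage comparison and 0.41 in the joint comparison. The standard-cage call was also lost without the second C-DE array (0.39), and the joint call without the second C-C array (0.51) or the first EE-DE array (0.33). A second Cxcl10 probe, which was not well above background on every array, was at -0.36 in the standard-cage comparison, 0.80 in the enriched comparison and 0.43 in the joint comparison. The sign thus differed between the probes in the standard cage, but a probe not well above background gives no secure direction.

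Serpina3n, a protease inhibitor that is among the most used markers of reactive astrocytes, was the highest of the list in the enriched comparison. It read -0.93 and -1.10 (C-C), -0.96 and -0.88 (C-DE), -0.92 and -0.97 (EE-C), and -0.66 and -0.63 (EE-DE). Both EE-DE arrays were above the other 6, and the change was 0.30 (0.26 to 0.35) in the enriched comparison and 0.10 (-0.03 to 0.22) in the standard-cage comparison. For 4 further genes, chosen after their values were seen, the changes in the standard-cage comparison and the enriched comparison were as follows. The lipocalin Lcn2 was at -0.11 (-0.26 to 0.04) and 0.03 (-0.42 to 0.48), and the adhesion receptor Cd44 at 0.09 (-0.07 to 0.26) and 0.27 (0.25 to 0.28). The protease inhibitor Timp1 was at -0.09 (-0.35 to 0.17) and 0.22 (0.07 to 0.38), and the filament protein Nes, nestin, at 0.10 (0.07 to 0.14) and 0.03 (-0.06 to 0.12). The lowest of the list were Clcf1 at -0.27 in the standard-cage comparison and Cp at -0.29 in the enriched comparison, both dim. Of the list, 0 of 31 probes kept the 4 exposed arrays apart from the 4 clean air arrays. Over all probes 1.76% did so higher and 3.08% lower, so a list of this size would hold few or none. For Steap4, Ptx3, Tnc, Ggta1, Slc10a6 and Tgm1 no probe was well above background on all arrays.

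Markers of other cells that a dissected bulb can hold were read in the same way, since Vim, S100b and Gfap are not exclusive to astrocytes. All 12 defining astrocyte markers were measured, and so were those of ensheathing cells (6 of 6), oligodendrocytes (4 of 4), microglia (5 of 5), neurons (6 of 6), vessels and meninges (5 of 5) and the olfactory mucosa (4 of 4), while 1 of 2 was measured for ependyma. In the 5 comparisons 1.5-fold was passed by 0 of 20 probes for ensheathing cells, 0 of 20 for oligodendrocytes, 0 of 18 for microglia, 0 of 20 for neurons and 0 of 4 for ependyma. Of all probes, 0.576% to 0.944% passed in each comparison, so lists of these sizes would hold few calls or none. The log2 of the summed signal of the 20 ensheathing cell probes ran from 8.98 to 9.09 over the 8 arrays, and that of the 14 marker probes from 6.94 to 7.03. In the standard-cage comparison and the enriched comparison the farthest probes were Aldh1a3 (0.12), Apod (-0.12 and -0.14) and Foxd3 (0.13) for ensheathing cells, Ermn (0.15 and 0.48), Mobp (-0.16) and Cspg4 (-0.16) for oligodendrocytes, and Tmem119 (0.14), Itgam (-0.32), Cx3cr1 (0.24) and P2ry12 (-0.27) for microglia. Those of neurons were Slc32a1 (0.18), Tbr1 (-0.07 and, on another probe, 0.04) and Syt1 (-0.14), and those of ependyma were Foxj1 (0.05), Mlf1 (-0.13 and 0.24) and Rarres2 (0.0086).

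The vessel and mucosa lists held calls. Dcn, a proteoglycan of fibroblasts in the meninges, was 0.66 (0.11 to 1.20) higher in the enriched comparison, the 1 call among 15 probes there (0.608% of all probes were called higher), and the other ends of that list were Kdr (0.20) and Col1a1 (-0.48) in the standard-cage comparison and Igf2 (-0.24) in the enriched comparison. Of 17 probes of the olfactory mucosa, the nasal tissue next to the bulb, 12 were at least 1.5-fold lower in the standard-cage comparison (0.433% of all probes), and in the enriched comparison 8 were higher and 1 lower (0.336% lower). In the standard-cage comparison the probes that passed in all 4 pairings were of Cyp2g1 (-1.59), Sec14l3 (-1.48), Krt8 (-1.40), Umodl1 (-1.31) and Krt18 (-1.25), and in the enriched comparison it was Bpifa6 (-2.95), which also passed in the joint comparison (-2.33). The highest probes of the list were those of Adcy3 (-0.06) in the standard-cage comparison and Cyp2g1 (1.30, with pairings from -0.13 to 2.73) in the enriched comparison. Cyp2g1, Sec14l3, Krt8, Umodl1, Krt18, Cyp2f2, Ugt2a1, Cbr2 and Cnga4 passed upward in all 4 pairings of the exposed comparison, with changes from 1.26 to 2.19. Of all probes, 0.175% passed in all 4 pairings there, in either direction. By pool means 11 of the 17 mucosa probes were called higher (0.557% of all probes). Bpifa6 was called lower, at -1.18 with pairings from -2.89 to 0.53 (0.0783% of all probes were called lower). The astrocyte markers did not move with them: their median was -0.01 where that of the mucosa list was -0.95 in the standard-cage comparison, and 0.02 where it was 1.28 in the exposed comparison.

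Gfap c had the widest range of pool means relative to its duplicate gaps, 2.97 times, and genes with a like pattern were sought for it alone. Among 1910 probes of other genes with a range of at least 0.3 over the pools, the highest Pearson correlations over the 8 arrays were those of Fsd1l (0.89), Slc25a35 (0.87), Zfp707 (0.87), B4galnt4 (0.86) and Zfp945 (0.86). All 5 were below the 75th percentile, between -4.84 and -1.67. Like Gfap c they had their highest mean in EE-DE, which their choice by correlation with Gfap c favours. With 8 arrays of 4 pools, these values describe likeness of pattern only.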

How the data were processed

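Olfactory bulb RNA of 4 pools was hybridized in duplicate to 8 one-color Agilent mouse arrays with 62976 spots. Per the labels, the authors scanned the arrays and extracted signals with Agilent Feature Extraction 10.7.3.1; the deposited intensity values used here were the processed signals, already background-subtracted. The log2 of these was taken minus the 75th percentile of the 59305 noncontrol spots. Spots with a GenBank or RefSeq accession, well above background on all 8 arrays and without an outlier flag were kept, spots of a probe were averaged, and a pool was the mean of its 2 arrays, which left 21709 probes of 16484 genes. The deposited series table of log2 values by the authors has each probe set near 0. The lowest exposed array of S100b, for one, is -0.0064 there and 5.3660 here. Apart from that shift of each probe, it differed from these values by under 0.02 on all arrays for 99.4% of probes and by at most 0.031 for the markers. With 1 pool per group no test was run. Every marker's RefSeq accession carried the same symbol in RefSeq (14 of 14). The members and lists were chosen with earlier results of these data known. The text names all 9 markers with every probe, and of each other list the highest and lowest probe in both exposure comparisons and genes past 1.5-fold in all pairings; those named by neither are marked in the text as chosen after their values were seen. Likeness was sought for the marker probe with the widest pool range over its duplicate gap. Alternatives used normexp (offset 50) and quantile normalization in limma 3.58.1 under R 4.3.3, other scales, filters, thresholds and values per gene, and each array left out. Python 3.11.15, numpy 2.4.6 and pandas 2.3.3 were used.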

Additional observations from a re-analysis of the deposited data

How the results depend on the processing

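The count of marker probes past 1.5-fold was 0 in each comparison with normexp, quantile normalization, the other scales, the authors' table and 1 value per gene. It could only be 0 at 2-fold, in all pairings or with 1 array left out, since no pairing of arrays passed 1.5-fold, and the filters on signal left the marker values as they were. The median change stayed within 0.05 of 0 throughout. In the enriched comparison it was -0.0124 with normexp and -0.0235 with 1 value per gene, by the mean or the brightest probe. In the exposed comparison it was -0.0065 with the brightest probe, and in the clean air comparison it was -0.0058 with arrays scaled to the median of passing spots. Leaving out 1 array gave medians of -0.0221 to 0.0263 in the standard-cage comparison, -0.0001 to 0.0299 in the enriched comparison, -0.0179 to 0.0062 in the clean air comparison, -0.0164 to 0.0412 in the exposed comparison and -0.0118 to 0.0283 in the joint comparison. The median difference between the housings ran from -0.0043 to 0.0494 in the same way, and its sign turned without the first C-C array or the first EE-DE array. Of the single-probe values, 70 a setting, normexp moved 18 by the SD of their pairings or more and subtraction of the neighbours' median moved 2. The other 5 settings that altered any of them moved 0. Of the wider astrocyte probes, 1 of 98 passed 1.5-fold in any comparison with the filter on positive and significant signal, and 2 of 99 with no signal filter. Of all probes, 2.28% to 3.3% passed per comparison with that filter and 6.76% to 17.4% without a signal filter. Of the 31 reactive probes, where Cxcl10 was the 1 call, none passed with normexp, in each of the 4 pairings or at 2-fold (0 in each case). With the positive and significant filter 2 of 35 passed, and with no signal filter 11 of 44, beside the same shares of all probes. With 1 array left out 1 to 2 of 31 passed, where 0.516% to 1.83% of all probes passed per comparison. The added probes without a filter are dim. No paired analysis was possible because the array numbers name the 2 arrays of 1 pool and pair no samples across groups. With 1 pool per group, all ranges here cover the arrays and not the mice, and small differences such as those of Gfap c and Aqp4 have no replicate check. The cause of the neighbours' pattern on the EE-C arrays was not tested.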
